A study of Mus musculus and Rattus norvegicus with 12 samples.

Results

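The solute carriers were read in RNA-seq counts of 12 separately derived cell lines, 8 from mouse and 4 from rat. Genes were chosen by symbol, Slc followed by a digit, and by level, at least 1 CPM (counts scaled to library size) in at least 2 mouse lines. Slc22a3, Slc22a18 and Slc38a4 were left out. This gave 248 genes of the 373 Slc symbols among 24411 mouse gene rows, and 229 of them also had a row in the rat tables. The genes were thus selected on their measured levels. The last genes inside the threshold, Slc25a41, Slc1a3 and Slc25a48, had 1.15 CPM in their second-highest line, and the first outside it, Slc12a5, Slc23a3 and Slc35g2, had 0.892 CPM. Of the 122 symbols under the threshold, 59 had 0 counts in every mouse line.

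All mouse lines were of the ICR strain and came from blastocysts. The 3 pXEN lines (pXEN2, pXEN4 and pXEN6, passages 17 to 21) and the 4 rat XENP lines were grown in the same condition. Of the rat lines, WKY animals gave CX1 and MAX8, and F344 animals gave MAX2 and MAX3. The 3 XEN lines (XEN1 at passages 9 to 10, XEN2 and XEN5 at 19 to 21) grew on mouse embryo fibroblasts in serum. ES2 and ES3 are embryonic stem (ES) lines, kept with serum, LIF and kinase inhibitors (passages 14 to 16). XEN cells self-renew in culture and stand for primitive endoderm, the blastocyst layer that forms yolk sac endoderm. Cell type and culture changed together in each comparison and cannot be told apart. In bulk RNA, fewer cells of a type and less RNA per cell cannot be told apart either.

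Solute carriers are membrane proteins that move amino acids, sugars, metals, ions, vitamins and nucleotides across the plasma membrane or the membranes of organelles. Most work as exchangers, cotransporters or facilitators and use gradients that ATP-driven pumps set up. Yolk sac endoderm is a nutrient-absorbing and secreting epithelium, and its parietal derivative secretes large amounts of glycosylated basement membrane protein.

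Gene counts without the ribosomal RNA precursor Rn45s ran from 1635626 to 2418423 per mouse line and from 1047318 to 1242549 per rat line. Endoderm markers (10 genes) summed to between 10022 and 17669 CPM in the pXEN and XEN lines and to 106 and 159 CPM in ES. Pluripotency markers (10 genes) summed to about 7277 and 7291 CPM in ES, 46.1 to 99.2 in pXEN and 5.71 to 9.44 in XEN. Trophoblast markers (6 genes) summed to at most 4.20 CPM in endoderm lines and 33.1 to 33.7 in ES. Fibroblast markers (15 genes) summed to 380 to 499 CPM in XEN, 13.2 to 22.3 in pXEN and 17.4 to 20.0 in ES. Of those 15, 10 were at 0 in pXEN, Col1a2, Col3a1, Lum and Dcn among them, 8 were at 0 in ES and 0 were at 0 in XEN.

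Solute carriers took a larger share of the gene counts in endoderm lines than in ES. The share was 1.25%, 1.46% and 1.28% in pXEN2, pXEN4 and pXEN6, and 1.21%, 1.39% and 1.24% in XEN1, XEN2 and XEN5. It was 0.929% in ES2 and 1.04% in ES3, below each endoderm line. In the rat lines CX1, MAX2, MAX3 and MAX8 it was 1.41%, 1.68%, 1.67% and 1.72%. Of the 248 genes, 148 reached 1 CPM in all 8 mouse lines, and 40 did so in lines of 1 group only, 31 of them in ES, 6 in XEN and 3 in pXEN.

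Of the 248 genes, 184 had enough counts to be tested with edgeR's quasi-likelihood test, in a fit of all genes with Benjamini-Hochberg adjustment over 11012 genes. In pXEN, 57 were higher and 30 lower than in ES, where 36.4% of all tested genes were called in either direction (18.0% higher, 18.4% lower). For XEN there were 58 higher and 30 lower than in the same ES lines, where 38.8% of all genes were called (20.7% higher, 18.1% lower). The median log2 fold change of the tested carriers was 0.43 in pXEN and 0.52 in XEN, beside -0.05 and -0.0011 over all tested genes. The higher counts fell to 32 in pXEN and 29 in XEN without ES2, and to 36 in XEN without ES3. The lower count in XEN was 19 without XEN5, 19 without ES2 and 17 without ES3. Since a gene could enter through 1 group alone, the 165 tested genes at 1 CPM in lines of every mouse group were also counted. Of these, pXEN had 51 higher with 19 lower, and XEN had 52 with 19. That requirement drops genes near 0 in any 1 group. It was not applied to all genes, so no matching share stands beside these counts. The pXEN and ES lines did not overlap for 125 of the 184 tested carriers, where 63.2% of all genes did not, and the XEN and ES lines for 124, where 63.4% did not. Both comparisons use the same ES lines. Their calls were the same way for 47 higher and 26 lower genes, with 0 called in opposite directions.

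**Figure D1:**
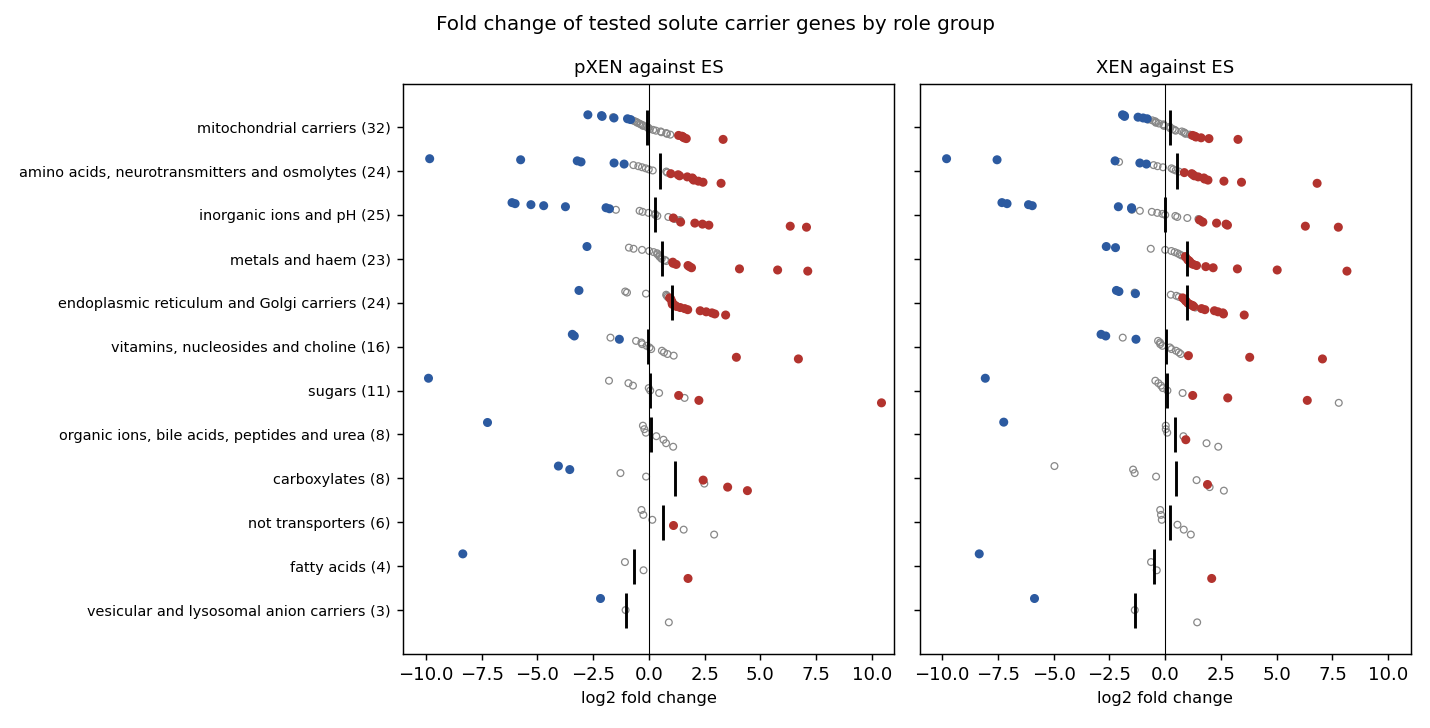
Log2 fold change of the 184 tested solute carrier genes in pXEN and in XEN against ES, by role group with the number tested in brackets. Each point is 1 gene, filled red (higher) or blue (lower) where the edgeR adjusted p is under 0.05 and open otherwise, and black bars are medians. Carriers of the endoplasmic reticulum and Golgi have medians of 1.05 and 1.0, while mitochondrial carriers have medians of -0.07 and 0.21.

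Carriers of metals and haem were among the groups with more higher than lower calls. Of 23 tested, 9 were called above and 1 below ES in pXEN (39.1% and 4.35%), beside 18.0% and 18.4% of all genes. In XEN 11 were above and 2 below (47.8% and 8.7%), beside 20.7% and 18.1% of all genes. The lower calls were not stable to the choice of lines: both were lost in XEN without XEN5, ES2 or ES3, and the 1 in pXEN without ES3, while the count in pXEN was 2 without pXEN2 or XEN1. The summed level of the 29 genes of the group was 1694, 1818 and 1921 CPM in the pXEN lines, 1583, 1626 and 1735 in the XEN lines, and 992 and 886 in ES2 and ES3. The groups of endoderm lines did not overlap with ES.

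Slc39a8 encodes ZIP8, an importer of zinc and manganese. It lies on chromosome 3 (135825279 to 135888572, plus strand, GRCm38). It stood at 44.1, 37.1 and 72.9 CPM in pXEN2, pXEN4 and pXEN6, at 118, 77.6 and 118 CPM in XEN1, XEN2 and XEN5, and at 0 and 0.602 CPM in ES2 and ES3. Its order was thus XEN, pXEN and ES, and the lowest XEN line and the highest pXEN line were close. The rat lines CX1, MAX2, MAX3 and MAX8 had 12.1, 0.924, 0.955 and 1.79 CPM. The gene was chosen for its levels, so they are given without a test.

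Slc30a4 encodes ZnT4, which moves zinc into vesicles. It was at 186, 194 and 225 CPM in pXEN, 102, 93.1 and 145 CPM in XEN, and 14.4 and 9.62 in ES. Every endoderm line was above both ES lines. The log2 fold change was 4.07 (SE 0.33, edgeR adjusted p = 8.8e-06) in pXEN and 3.24 (SE 0.32, edgeR adjusted p = 3.5e-05) in XEN. Rat XENP lines had 195 to 235 CPM. pXEN lines were also all above the XEN lines, but that difference did not pass the threshold (log2 fold change 0.83, SE 0.23, edgeR adjusted p = 0.072).

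Slc41a2, a magnesium transporter, was at 30.4, 45 and 35.2 CPM in pXEN, at 30, 9.44 and 26.5 in XEN, and at 0 and 1.2 in ES. The ES lines held 2 counts in all, which gives a ratio of 60.6 (exact 95% counting interval 16.6 to 503) for pXEN over ES and of 34.6 (9.41 to 289) for XEN over ES. Both differences passed (edgeR adjusted p = 0.00036 and 0.001), with no overlap between endoderm and ES lines. Other higher genes were Slc39a1, a zinc importer (168 ± 48 CPM in pXEN and 131 ± 13 in XEN, SD, n = 3, against 49.5 ± 11.7 in ES, n = 2), and Slc30a7, which loads zinc into the Golgi (123 ± 63.1 and 145 ± 26.4 against 32.5 ± 2.59). Slc11a2, the proton-coupled iron importer DMT1, was at 120 ± 13.2 and 104 ± 15.4 CPM against 51.1 ± 4.25. It was higher in both, but its call in XEN was lost without ES2 (edgeR adjusted p = 0.066).

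Other metal carriers did not pass against ES. Slc39a10, a zinc importer with the highest level per exonic kilobase of the metal carriers in pXEN, was at 478 ± 168, 343 ± 110 and 343 ± 119 CPM in pXEN, XEN and ES. Slc39a14 was at 24.9 ± 11.0, 37.1 ± 8.06 and 30.7 ± 0.832 CPM. Slc40a1, the iron exporter ferroportin, was under the count filter, with 0 counts in pXEN, which allows up to 0.457 CPM, and at most 3.86 CPM in any mouse line, beside 3.57 to 10.5 CPM in rat XENP.

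Slc30a1, the zinc exporter of the plasma membrane, went the other way. It was at 2.03, 1.31 and 0.868 CPM in pXEN, 2.40, 3.00 and 0.815 CPM in XEN, and 8.75 and 10.8 in ES. All 6 endoderm lines were below both ES lines. The log2 fold change was -2.77 (SE 0.68, edgeR adjusted p = 0.0078) in pXEN and -2.23 (SE 0.65, edgeR adjusted p = 0.019) in XEN. Without ES3 the edgeR adjusted p was 0.071 in pXEN and 0.13 in XEN, and in XEN it was 0.080 without ES2 and 0.057 without XEN5. Rat XENP lines had 12.5 to 29.8 CPM.

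Zinc-binding metallothioneins, which are no carriers, had a like order. Mt1 was at 2.03, 10.1 and 0.434 CPM in pXEN, 1.8, 1.72 and 4.89 CPM in XEN, and 36.9 and 61.4 in ES (log2 fold change -3.52, SE 0.79, edgeR adjusted p = 0.0065 in pXEN, and -4.06, SE 0.83, edgeR adjusted p = 0.0040 in XEN). Mt2 was at or under 0.874 CPM in every endoderm line and at 9.38 and 33.1 CPM in ES2 and ES3. For both genes the highest endoderm line was below the lowest ES line. Mtf1, the zinc-sensing factor known to act on Slc30a1 and metallothionein promoters, was at 10.8 ± 3.67 CPM in pXEN, 13.3 ± 3.28 CPM in XEN and 21.4 ± 2.02 in ES and did not pass in either comparison (edgeR adjusted p = 0.076 and 0.20).

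**Figure D2:**
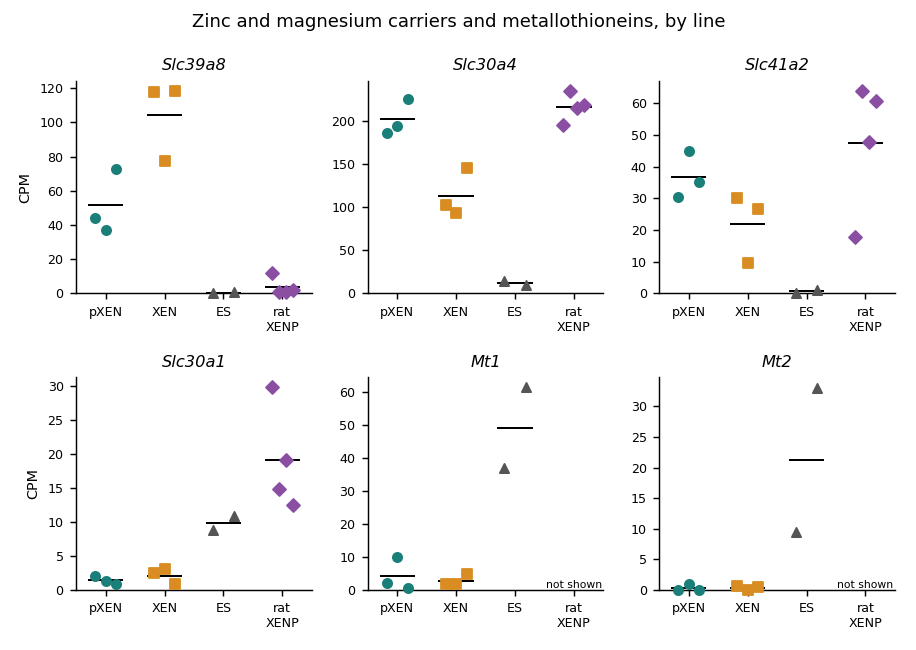
Level in CPM of zinc and magnesium carriers and of Mt1 and Mt2 in each line, with group means as bars and each axis starting at 0. Slc39a8, Slc30a4 and Slc41a2 are near 0 to 14.4 CPM in ES and higher in every mouse endoderm line, and Slc30a1, Mt1 and Mt2 are highest in ES among the mouse groups. No rat values are drawn for Mt1 and Mt2.

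The 250 bases before the RefSeq start site are shown for 3 of the zinc carriers described above, Slc39a8 and Slc30a4 with higher and Slc30a1 with lower levels in endoderm lines than in ES. Capitals mark matches on either strand to TGCACNC or TGCGCNC, cores of the metal response element that Mtf1 binds. The windows lie at chr1:191906531-191906780 on the plus strand (Slc30a1), chr2:122702664-122702913 on the minus strand (Slc30a4) and chr3:135825029-135825278 on the plus strand (Slc39a8, the more upstream of 2 starts), all in GRCm38.p6.
Slc30a1: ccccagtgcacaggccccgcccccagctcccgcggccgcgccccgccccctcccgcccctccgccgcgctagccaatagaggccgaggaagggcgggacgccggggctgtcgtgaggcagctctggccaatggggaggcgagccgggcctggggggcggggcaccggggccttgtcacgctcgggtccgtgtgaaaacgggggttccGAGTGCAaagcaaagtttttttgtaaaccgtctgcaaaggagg
Slc30a4: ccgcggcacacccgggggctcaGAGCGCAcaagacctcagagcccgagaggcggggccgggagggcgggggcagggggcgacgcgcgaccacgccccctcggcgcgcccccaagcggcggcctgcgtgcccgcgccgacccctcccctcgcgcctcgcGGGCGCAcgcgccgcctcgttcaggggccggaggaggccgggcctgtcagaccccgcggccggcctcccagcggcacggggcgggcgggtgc
Slc39a8: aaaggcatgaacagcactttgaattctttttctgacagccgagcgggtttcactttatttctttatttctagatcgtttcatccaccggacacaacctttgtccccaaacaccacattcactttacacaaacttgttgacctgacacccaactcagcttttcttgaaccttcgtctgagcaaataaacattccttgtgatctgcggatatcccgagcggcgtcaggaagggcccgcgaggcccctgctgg
The Slc30a1 window held 1 TGCACNC match, the Slc30a4 window held 2 TGCGCNC matches, and the Slc39a8 window shown held 0 of either. The window of the other Slc39a8 start (chr3:135825407-135825656) held 1 TGCACNC and 1 AGATAA match. No match overlapped another. Of the 17 zinc carriers (families 30 and 39) with a window, 8 held a match in at least 1 window (47.1%), beside 33% of the 185 solute carriers with a window and 23.8% of 27025 genes. AGATAA, the site of GATA factors, was in 7.57% of the carriers, in 5% of the 40 called higher in both pXEN and XEN that had a window, and in 11.4% of all genes, on either strand. It was in 15.8% of the 19 called lower in both that had a window, and in none of the 3 windows shown. These matches describe the letters of the windows.

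The group of endoplasmic reticulum and Golgi carriers had the most higher calls of any role group. It takes in carriers that load nucleotide sugars, nucleotides and sulphate donors for glycosylation. The group was formed by family number, so it also holds carriers with other substrates or sites. Of 24 tested, 15 were called above and 1 below ES in pXEN (62.5% and 4.17%), beside 18.0% and 18.4% of all genes. In XEN 14 were above and 3 below (58.3% and 12.5%), beside 20.7% and 18.1% of all genes. The higher count was 8 in pXEN without ES2, and in XEN it was 6 without ES2 and 8 without ES3, while the lower count in XEN was 1 without XEN1, and in pXEN it was 2 without pXEN4 or ES2. The median log2 fold change was 1.05 in pXEN and 1.0 in XEN. The 26 genes of the group summed to 1496, 1763 and 1504 CPM in pXEN, 1513, 1255 and 1553 CPM in XEN, and 840 and 948 in ES, with no overlap. In rat XENP the 23 genes with a row summed to 1554 to 1891 CPM.

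Slc35a2, the Golgi UDP-galactose carrier, was at 43.1, 52.9 and 62.5 CPM in pXEN, 56.4, 33.5 and 44.4 CPM in XEN, and 8.75 and 6.01 in ES (7.12-fold higher in pXEN, edgeR adjusted p = 0.00023, and 6.01-fold in XEN, edgeR adjusted p = 0.00044). Slc35c1, the GDP-fucose carrier, was at 59.8, 69.1 and 43.4 CPM, then 62.3, 25.7 and 47.7, against 2.5 and 12.0 in ES (7.79-fold, edgeR adjusted p = 0.0027, and 6.12-fold, edgeR adjusted p = 0.0053). Slc35f5 was at 23.3 to 33.9 CPM in the 6 endoderm lines and at 3.13 and 1.8 in ES (10.9-fold, edgeR adjusted p = 0.00017, and 11.7-fold, edgeR adjusted p = 0.00016). All endoderm lines were above both ES lines for these 3 genes. Slc35b1, which brings ATP into the endoplasmic reticulum, was at 144 ± 13.4 CPM in pXEN, 120 ± 8.27 CPM in XEN and 69.3 ± 4.48 in ES. It passed in both, but in XEN not without ES2 or ES3 (edgeR adjusted p = 0.068 and 0.098). Slc35f2 fell, from 29.4 and 37.9 CPM in ES to 3.04 to 4.81 in pXEN (edgeR adjusted p = 0.00016) and 6 to 8.15 in XEN (edgeR adjusted p = 0.0012).

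**Figure D3:**
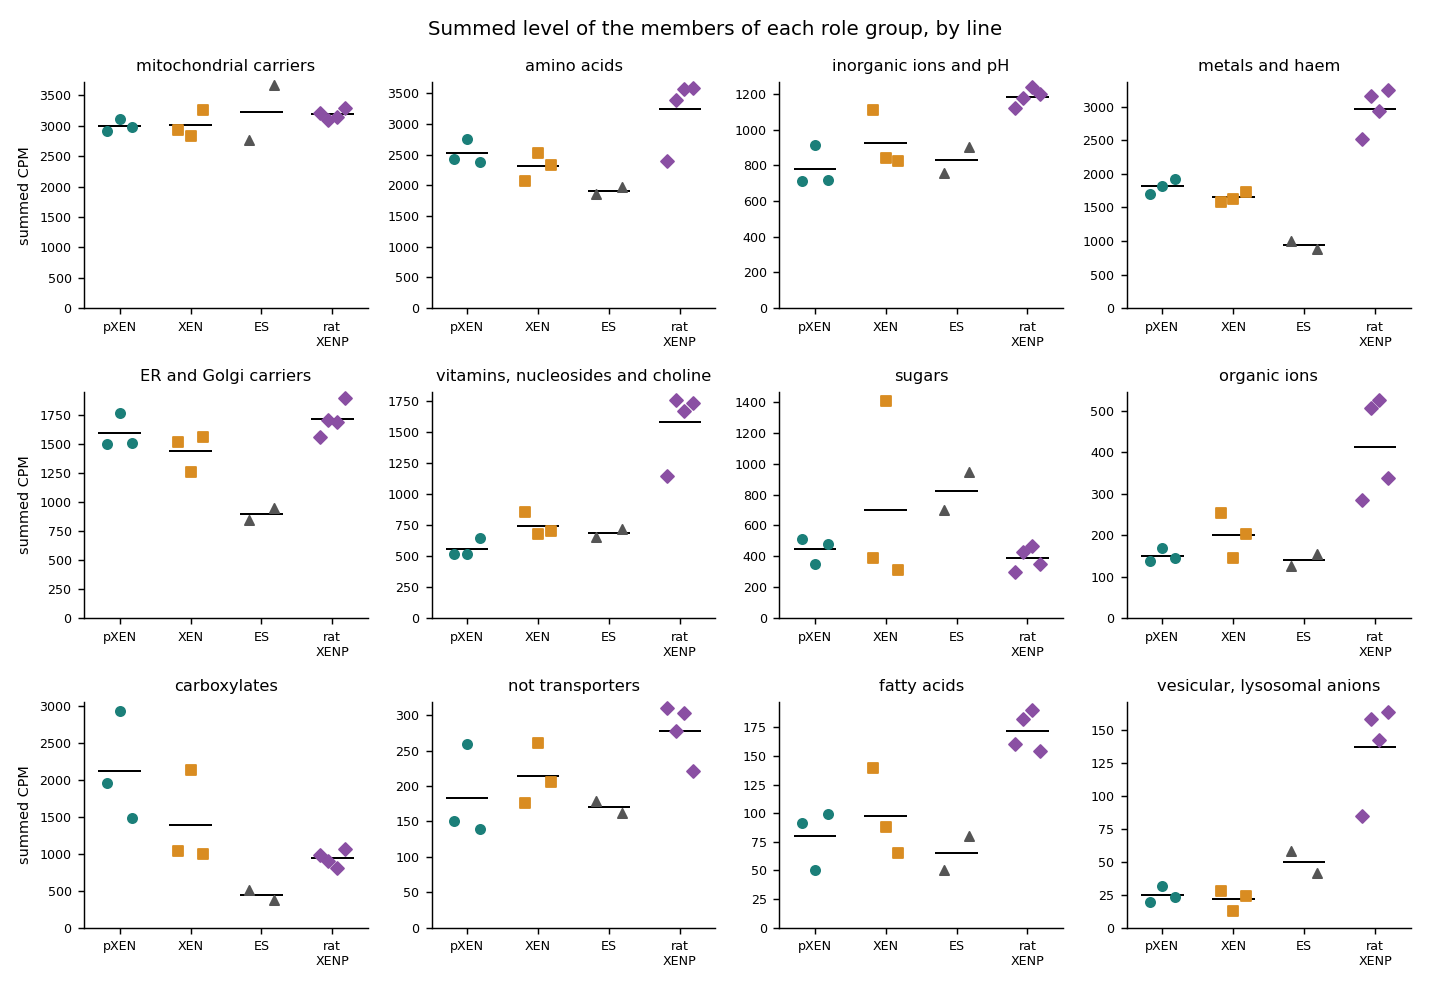
Summed level in CPM of the members of each role group in every line (circles pXEN, squares XEN, triangles ES, diamonds rat XENP), with group means as bars and each axis starting at 0. Metal carriers and carriers of the endoplasmic reticulum and Golgi sum higher in every mouse endoderm line than in ES, the mitochondrial group overlaps, and XEN2 stands alone at 1409 CPM in the sugar group.

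Amino acid carriers moved in both directions. Of 24 tested, 10 were called above and 6 below ES in pXEN (41.7% and 25%), beside 18.0% and 18.4% of all genes. In XEN 11 were above and 5 below (45.8% and 20.8%), beside 20.7% and 18.1% of all genes. The higher count in XEN was 4 without ES2, 7 without ES3 and 6 without XEN5. The lower count was 3 in pXEN without ES3, and 3 in XEN without XEN2, XEN5 or ES3.

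The cationic amino acid carriers of family 7 differed by member. Slc7a3 (chromosome X, 101079210 to 101086020, minus strand, GRCm38) was at 269 and 398 CPM in ES2 and ES3 and at no more than 1.01 CPM in any endoderm line. The ratio of ES over pXEN was 1098 (exact 95% counting interval 303 to 9076, from 2 counts in pXEN) and of ES over XEN 1079 (298 to 8919). Slc7a3 is counted among the lower genes in both comparisons. Its place among the carriers rested on the ES lines, so its direction was largely set by that choice and no test is given. Slc7a1, a carrier of the same substrates, was at 327, 241 and 182 CPM in pXEN, 308, 133 and 192 CPM in XEN, and 41.3 and 109 in ES. It was 3.31-fold higher in pXEN (edgeR adjusted p = 0.018) and 2.79-fold in XEN (edgeR adjusted p = 0.033), with no overlap. That call rested on few lines: without ES2 the edgeR adjusted p was 0.12 in pXEN and 0.20 in XEN, and in XEN it was 0.091 without XEN1 and 0.055 without XEN5. In rat XENP, Slc7a1 was at 864 to 1535 CPM and Slc7a3 at 1.61 to 8.59.

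Slc7a6, an exchanger that pairs with the heavy chain Slc3a2, was at 353, 379 and 386 CPM in pXEN, 292, 348 and 429 CPM in XEN, and 91.9 and 96.8 in ES. It was 3.94-fold and 3.78-fold higher (edgeR adjusted p = 0.00012 and 0.00016). Slc3a2 itself was at 239 to 309 CPM in all 8 mouse lines and did not pass (log2 fold change -0.30, SE 0.20, and -0.10, SE 0.20). Slc7a5, another partner of Slc3a2, was at 36.8 ± 10.3 CPM in pXEN, 41.3 ± 6.47 CPM in XEN and 59.3 ± 12.3 in ES and did not pass either. Slc7a11, the cystine exchanger that also pairs with Slc3a2, was under the count filter, with at most 1.8 CPM in any mouse line.

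Slc38a1, a sodium-coupled glutamine carrier, was at 428, 500 and 419 CPM in pXEN, 285, 496 and 397 CPM in XEN, and 144 and 87.8 in ES (3.88-fold, edgeR adjusted p = 0.00059, and 3.40-fold, edgeR adjusted p = 0.0011). Its relative Slc38a2 was at 638 ± 134, 567 ± 205 and 370 ± 124 CPM and did not pass. Slc1a5, a glutamine exchanger, was at 22.8 to 26.2 CPM in pXEN and 17.6 to 28.8 in XEN, below 49.4 and 55.9 in ES. Its log2 fold change was -1.10 (SE 0.29, edgeR adjusted p = 0.012) and -1.14 (SE 0.29, edgeR adjusted p = 0.010), with values of 0.093 and 0.077 without ES3.

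Slc16a1 encodes MCT1, which moves lactate and pyruvate with a proton. It lies on chromosome 3 (104638668 to 104658462, plus strand, GRCm38) and had the highest level per exonic kilobase of all carriers in pXEN (452 ± 161 CPM per kb), above Slc25a5 (389 ± 67.7) by less than the spread between lines. It was at 1787, 2793 and 1415 CPM in pXEN, 969, 2084 and 966 CPM in XEN, and 429 and 308 in ES. All endoderm lines were above ES. The log2 fold change was 2.44 (SE 0.43, edgeR adjusted p = 0.0018) in pXEN and 1.86 (SE 0.42, edgeR adjusted p = 0.0064) in XEN, where the value without ES3 was 0.066. Its chaperone Bsg was higher as well, at 725 ± 90.0 CPM in pXEN, 834 ± 82.5 CPM in XEN and 366 ± 8.18 in ES (edgeR adjusted p = 0.0033 and 0.0012). Rat XENP lines had 720 to 926 CPM of Slc16a1.

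The other carboxylate carriers were few. Of 8 tested, pXEN had 3 above and 2 below ES past the threshold, and in XEN 1, Slc16a1, was higher. Among all genes, 18.0% were above and 18.4% below ES in pXEN, and 20.7% and 18.1% in XEN. The higher count in pXEN was 1 and the lower 0 without ES2, the lower was 1 without pXEN2, and the higher in XEN was 0 without ES3 and 2 without XEN2, pXEN4 or pXEN6. The lower count in XEN, 0 with all lines, was 1 without XEN1, pXEN2, pXEN6 or ES2. Slc16a3, the lactate exporter MCT4, was at 0.507, 3.5 and 0.434 CPM in pXEN, 24.6, 2.14 and 3.26 CPM in XEN, and 40.6 and 11.4 in ES. It was lower in pXEN (log2 fold change -4.05, SE 1.19, edgeR adjusted p = 0.027). The call was lost without pXEN2 or pXEN6 and with no low-count filter (edgeR adjusted p = 0.080, 0.079 and 0.070). Leaving out ES2 lost it as well (log2 fold change -2.87). XEN1 overlapped with ES.

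Sugar carriers varied between lines of 1 group. Of 11 tested, 3 were higher and 1 lower than in ES in both pXEN and XEN, and the higher counts were 1 without ES2 or ES3, and 1 in pXEN without pXEN6. The lower count was 2 in both without XEN2, and 0 in XEN without XEN5. With all lines, 27.3% were higher and 9.09% lower in each comparison. The shares of all genes were 18.0% and 18.4% in pXEN, and 20.7% and 18.1% in XEN. The lower gene with all lines was Slc5a1, included through ES lines alone. The higher genes took in Slc2a10 in pXEN and Slc5a7 in XEN, both included through endoderm lines alone. Slc5a7 is a choline transporter, placed in this group by its family number. Slc2a3, the neuronal-type glucose transporter GLUT3, was at 154, 1048 and 69.7 CPM in XEN1, XEN2 and XEN5, so 1 line was above both ES lines (548 and 605) and the other two below. In pXEN it was at 230, 60.8 and 211 CPM. It did not pass in either comparison (edgeR adjusted p = 0.26 and 0.78). XEN2 was also the highest mouse line for Slc2a1, or GLUT1, at 202 CPM beside 60.0 and 53.8 in XEN1 and XEN5, and rat XENP lines had 17.0 to 60.2 CPM of Slc2a1 and at most 6.44 of Slc2a3.

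Slc5a1, the sodium-coupled glucose transporter SGLT1, was at 10.6 and 105 CPM in ES2 and ES3. It had 0 counts in pXEN, which allows up to 0.457 CPM, and 1 count in XEN. It was included through the ES lines alone, so no test is given. Slc45a3 was at 27.4 to 55.2 CPM in the endoderm lines and at 3.13 and 9.02 in ES. It was 4.75-fold higher in pXEN and 6.99-fold in XEN (edgeR adjusted p = 0.0030 and 0.00091).

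Mitochondrial carriers, which link the matrix to the cytosol, were called at rates close to those of the whole tested set. Of 32 tested, 6 were higher and 6 lower than in ES in both pXEN and XEN (18.75% each way). The 11012 genes of the fit gave 18.0% up with 18.4% down for pXEN, then 20.7% with 18.1% for XEN. The summed level of all 44 mitochondrial carriers was 2921 to 3117 CPM in pXEN, 2827 to 3259 in XEN, and 2770 and 3670 in ES. The lower count in XEN was 3 without XEN5 or ES2 and 2 without ES3. The ADP/ATP exchangers went opposite ways. Slc25a4 (ANT1) was at 749, 904 and 780 CPM in pXEN, 796, 676 and 1074 CPM in XEN, and 190 and 366 in ES (2.92-fold, edgeR adjusted p = 0.0025, and 3.05-fold, edgeR adjusted p = 0.0021). Slc25a5 (ANT2) was at 623, 539 and 760 CPM in pXEN, 492, 502 and 605 CPM in XEN, and 851 and 1628 in ES. It was 1.93-fold lower in pXEN (edgeR adjusted p = 0.018) and 2.32-fold lower in XEN (edgeR adjusted p = 0.0050). No endoderm line overlapped with ES for either gene. The fall of Slc25a5 rested on ES3, since without it the edgeR adjusted p was 0.36 in pXEN and 0.11 in XEN, and it was 0.057 in pXEN without pXEN2. Both genes have near-identical copies in the genome, and multimapping reads were not counted, so their levels are uncertain.

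Of the other mitochondrial carriers, Slc25a24, a calcium-dependent ATP-Mg and phosphate carrier, was at 22.7 to 74.6 CPM in the endoderm lines and 5.63 and 4.81 in ES (10.1-fold, edgeR adjusted p = 0.0011, and 9.61-fold, edgeR adjusted p = 0.0013). Slc25a12, an aspartate and glutamate carrier, was at 26.5 to 44.8 CPM against 142 and 132 in ES (4.34-fold lower, edgeR adjusted p = 0.00019, and 3.57-fold lower, edgeR adjusted p = 0.00049). The phosphate carrier Slc25a3 and the citrate carrier Slc25a1 did not pass, at 234 ± 15.9 and 79.6 ± 7.30 CPM in pXEN, 218 ± 33.6 and 60.8 ± 11.7 CPM in XEN, and 187 ± 5.77 and 81.2 ± 22.1 in ES.

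**Figure D4:**
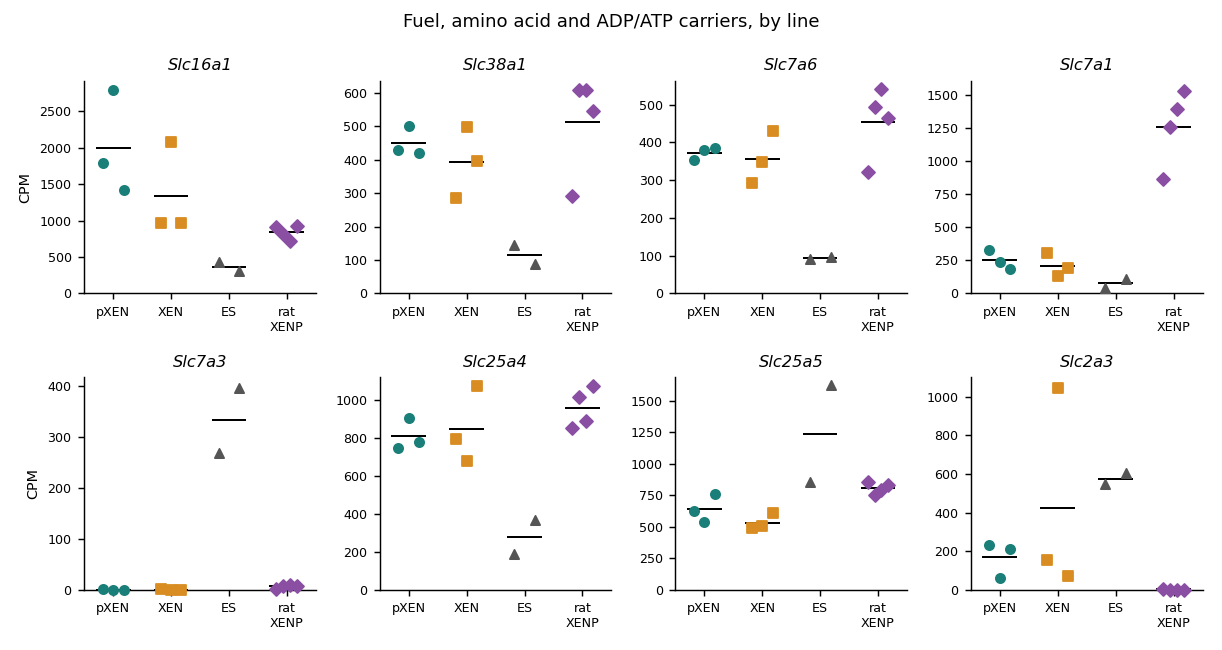
Level in CPM of lactate, glutamine, cationic amino acid, ADP/ATP and glucose carriers in each line, with group means as bars and each axis starting at 0. Slc16a1, Slc38a1, Slc7a6, Slc7a1 and Slc25a4 are lowest in ES among the mouse groups, Slc7a3 is seen almost only in ES, and Slc2a3 is at 1048 CPM in XEN2 alone among endoderm lines.

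Carriers of inorganic ions and protons held 7 higher and 7 lower of 25 tested in each comparison with ES. In pXEN the higher count was 4 without pXEN2 and 3 without ES2. Slc4a5, a sodium bicarbonate cotransporter, was at 93.8 and 126 CPM in ES, at 5.57, 0.874 and 6.08 in pXEN, and at 1.2, 0.858 and 0 in XEN (26.2-fold lower, edgeR adjusted p = 0.00014, and 160-fold lower, edgeR adjusted p = 4.2e-05). Slc12a8 and Slc4a8 had 2 counts over the pXEN lines and 2 over the XEN lines, and were at 40.0 and 11.4 and at 6.88 and 39.7 CPM in ES2 and ES3. Both are among the 7 lower genes. They were included through the ES lines alone, so their direction was fixed by that choice and no test is given. Slc24a3, a potassium-dependent sodium and calcium exchanger, had 0 counts in ES and was at 6.51 to 10.5 CPM in pXEN and 9.79 to 19.8 in XEN. That is at least 8.92-fold and 14.6-fold higher. Slc24a3 was included through pXEN and XEN lines alone, so no test is given. It was also at 0 in all 4 rat lines.

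The remaining groups held few calls, where 18.0% of all genes were higher and 18.4% lower for pXEN, and 20.7% and 18.1% for XEN. Of 16 carriers of vitamins, nucleosides and choline tested, 2 were higher and 3 lower for pXEN (12.5% and 18.75%). For XEN there were 3 higher and 3 lower (18.75% each way). Without ES3 all of these counts were 0, the higher counts were also 0 without ES2, and the lower count in XEN was 0 without XEN5 and 1 without XEN2 or ES2. The higher count in pXEN was 1 without pXEN4 or pXEN6. Slc29a1, the nucleoside transporter ENT1, was at 131, 106 and 281 CPM in pXEN, 287 to 356 in XEN, and 226 and 199 in ES and did not pass, and rat XENP lines had at most 1.61 CPM. Of 4 fatty acid carriers 1 was higher and 1 lower in each comparison. Slc27a2, an acyl-CoA synthetase that takes up long-chain fatty acids, was at 13.8 and 25.9 CPM in ES and had 0 counts in all 6 mouse endoderm lines, at least 43.3-fold lower in pXEN and 42.6-fold lower in XEN. It was included through the ES lines alone, so no test is given, and the lower call counted for it was not made by DESeq2. Its relative Slc27a3 was higher at 33.2 to 113 CPM against 10.6 and 25.9 (edgeR adjusted p = 0.028 and 0.013), a call lost in both without ES2 (0.19 and 0.11) and in pXEN without pXEN2 or pXEN6 (0.061 and 0.072). Of 8 organic ion carriers tested, 1 was lower in each comparison, the peptide transporter Slc15a1, and 1 was higher in XEN. The lower counts were 0 without ES2, and the higher count in XEN was 0 without XEN1, ES2 or ES3 and 2 without XEN2 or pXEN6. Slc15a1 was at 11.3 and 7.22 CPM in ES and had 0 counts in the endoderm lines, and it too was included through ES alone. Of 3 vesicular carriers, 1, Slc17a9, was lower in each. Of 6 products that carry the symbol but are adaptors or other non-transporters, 1 was higher in pXEN, the adaptor Slc9a3r2 (36.3 ± 14.2 CPM against 17.2 ± 0.466, edgeR adjusted p = 0.040). That call was lost without pXEN4 or XEN5 (0.14 and 0.051) and in DESeq2. It also fell short with unstranded counts, upper-quartile scaling or only the 2 groups in the fit (0.067, 0.054 and 0.052). Leaving out ES2 or ES3 lost it too (log2 fold change 1.11 and 1.09). Without pXEN6 the count was 2, and without pXEN4 another was lower. The folate carrier Slc19a1 (39.2 ± 10.2, 30.8 ± 4.02 and 36.3 ± 7.05 CPM in pXEN, XEN and ES) and the chloride cotransporter Slc12a2 (60.7 ± 43.5, 111 ± 45.7 and 168 ± 71.7) did not pass.

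Between pXEN and XEN, 7 of the 184 tested carriers passed, 3 higher and 4 lower in pXEN, where 4.59% of all genes were called (0.872% higher, 3.71% lower). The pXEN and XEN lines did not overlap for 36 of the 184, where 19.7% of all genes did not. The 7 make up a share close to that of all genes. The median log2 fold change was -0.03, beside -0.01 over all genes. The counts were 1 to 4 higher and 2 to 4 lower when a line was left out, with 1 higher and 2 lower without XEN2 and 2 lower without XEN1 or XEN5. DESeq2 gave 7 higher and 5 lower, where it called 5.73% of 11007 genes in either direction. Among the 165 tested carriers at 1 CPM in lines of every mouse group, 1 was higher and 2 were lower, with no matching share of all genes. Fibroblast markers stood at 380 to 499 CPM in XEN and 13.2 to 22.3 in pXEN, with 12 of 13 tested lower in pXEN, and their part in these 7 results was not tested.

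Slc13a5 encodes the sodium-coupled citrate transporter of the plasma membrane. It lies on chromosome 11 (72241989 to 72267222, minus strand, GRCm38). It was at 121, 97.9 and 16.5 CPM in pXEN2, pXEN4 and pXEN6, at 0, 0.429 and 0 in XEN1, XEN2 and XEN5, and at 1.25 and 12.0 in ES2 and ES3. The order was pXEN, ES and XEN, and pXEN6 and ES3 were close. All 4 rat XENP lines had 0 counts, which allows up to 0.668 CPM over the group. It is 1 of the 3 higher genes, and since it was chosen for its levels no test is given.

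The other two higher genes were Slc17a9 and Slc35d2. Slc17a9, the vesicular nucleotide transporter, was at 4.05, 8.74 and 6.95 CPM in pXEN and at 0, 0.429 and 0.815 in XEN, with 35 and 25.9 in ES and 58.8 to 128 in rat XENP. XEN held 3 counts in all, which gives a ratio of 14.4 for pXEN over XEN (exact 95% counting interval 4.62 to 72.6). Slc17a9 was included through ES and pXEN lines alone, so its direction against XEN was fixed by that choice and no test against XEN is given. It was lower in pXEN than in ES (edgeR adjusted p = 0.0046), a call that fell short without ES2 (log2 fold change -1.95). Slc35d2, a Golgi carrier of UDP-sugars, was at 18.7, 12.7 and 12.6 CPM in pXEN and 4.20, 1.72 and 2.45 in XEN (5.32-fold, edgeR adjusted p = 0.021). Its call was lost without XEN2, XEN5 or pXEN2 (edgeR adjusted p = 0.068, 0.081 and 0.084). The pXEN and XEN lines did not overlap for either gene.

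Among the 4 lower genes, Slc48a1, which exports haem from lysosomes, was at 4.05, 5.68 and 6.51 CPM in pXEN and 20.4, 14.2 and 16.3 in XEN (3.08-fold lower, edgeR adjusted p = 0.031). The adjusted p was 0.065 to 0.13 without XEN1, XEN5 or any 1 of the pXEN lines. Slc25a33, a mitochondrial pyrimidine nucleotide carrier, was at 7.09, 5.24 and 0.868 CPM in pXEN and 38.4, 19.3 and 15.1 in XEN (5.47-fold lower, edgeR adjusted p = 0.035). The adjusted p was 0.053 to 0.11 without XEN1, XEN2, pXEN4 or pXEN6, and 0.082 with only the 2 groups in the fit. Its call was also lost without ES2 or ES3 (log2 fold change -2.45 and -2.43). In ES, Slc48a1 was at 11.3 and 9.02 CPM and Slc25a33 at 28.1 and 30.1 CPM.

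Slc1a6 and Slc5a7 complete the 7 and are named after their values were seen. Slc1a6, a glutamate transporter, was at 8.99, 6.43 and 5.30 CPM in XEN1, XEN2 and XEN5 and had 0 counts in every pXEN and ES line, so it was at least 15.1-fold lower in pXEN than in XEN. Slc5a7, a choline transporter that its family number places among the sugar carriers, was at 3.60, 6.43 and 4.89 CPM in XEN, also with 0 counts in pXEN and ES (at least 10.9-fold lower). In rat XENP, Slc1a6 had 0 counts and Slc5a7 reached 0.955 CPM in 1 line. Over the XEN lines Slc1a6 had 43 counts in all and Slc5a7 had 33. Both reached the level for inclusion through XEN lines alone, so their direction was fixed by that choice and no test is given for them.

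Slc2a10, the glucose transporter family member GLUT10, was at 69.4, 97.5 and 88.1 CPM in pXEN, 1.8, 0.858 and 36.3 in XEN1, XEN2 and XEN5, and at 0 in both ES lines. The level in pXEN was at least 92.4-fold that in ES. Slc2a10 was included through pXEN and XEN lines alone, so no test against ES is given. Every pXEN line was above every XEN line, but the difference did not pass (edgeR adjusted p = 0.34). Rat XENP lines had 167 to 249 CPM.

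**Figure D5:**
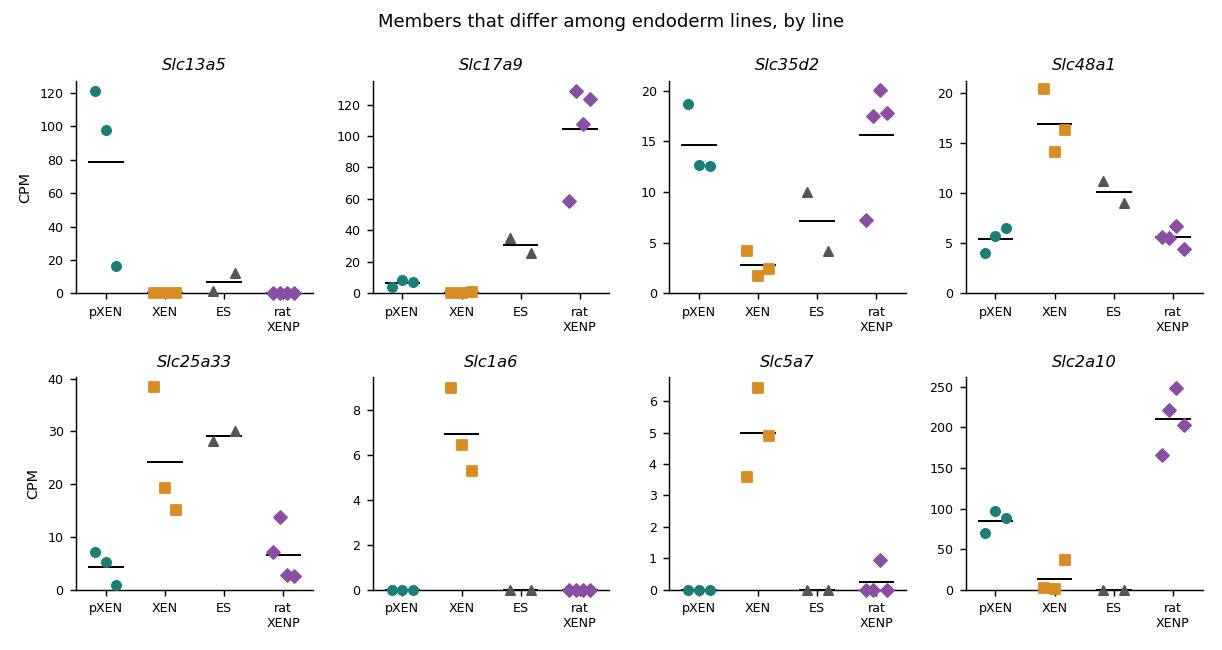
Level in CPM in each line of the 7 carriers called between pXEN and XEN and of Slc2a10, with group means as bars and each axis starting at 0. Slc13a5, Slc17a9 and Slc35d2 are higher in every pXEN line than in every XEN line, the next 4 are higher in every XEN line, and Slc2a10 is at 36.3 CPM in XEN5 but under 2 CPM in the other XEN lines.

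Of 41 pumps, chaperones, metal stores and other carriers that work beside solute carriers, 33 were tested. Both pXEN and XEN had 9 above and 6 below ES past the threshold. Over the 11012 genes, edgeR placed 18.0% above ES and 18.4% below it for pXEN. For XEN these shares were 20.7% and 18.1%. The 6 lower calls of 33 thus make up a share close to that of all genes. Of the 33, the higher ones took in Atp1b1, a subunit of the sodium pump, which keeps up the sodium gradient (266 ± 28.3, 199 ± 53.5 and 58.6 ± 19.2 CPM in pXEN, XEN and ES). The lower ones took in the folate receptor Folr1 (15.6 ± 4.27, 8.50 ± 5.41 and 90.9 ± 36.6 CPM) and the transferrin receptor Tfrc (112 ± 43.8, 202 ± 90.4 and 492 ± 62.3). Between pXEN and XEN 0 of the 33 passed in edgeR, with 3 at an unadjusted p under 0.05, and 0 passed in DESeq2, where 5.73% of all genes were called.

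Rat XENP levels were set beside the mouse levels without a test, since species, genome, annotation and strain change together. Of the 229 carriers with a rat row, 173 reached 1 CPM in at least 2 rat lines and 30 had 0 counts. The levels of some carriers lay far from those in mouse. Slc44a1, a choline transporter, was at 614 CPM in CX1 and 1307 to 1388 in the MAX lines, beside 29.5 to 77.8 in pXEN and XEN and 138 and 114 in ES. Slc39a7, a zinc carrier of the endoplasmic reticulum, was at 418 to 557 CPM in rat and 11.9 to 48 in mouse lines. Multimapping reads, which were not counted, made up 65.5% to 70.1% of the reads in rat and 7.84% to 9.65% in mouse, and their part in these values was not tested.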

How the data were processed

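The authors deposited 1 table of whole-number counts per line, with 3 count columns, read here as both strands, gene's own strand and reverse strand. The submitters' processing notes name CASAVA 1.8.2, Trimmomatic 0.33, STAR 2.5.1, DESeq2 and the builds mm10 and rn6. For the counting annotation, the sources used here give no name. Counts on the reverse strand were analysed, since that column held 98.9% to 99.3% of stranded counts. Rows for read classes (73.4% to 78.3% of reads in mouse, 89.7% to 91.8% in rat) and Rn45s (20.7% to 50.1% of mouse gene counts) were left out.

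All 8 mouse lines were fitted together with edgeR 4.0.16 (R 4.3.3): TMM scaling, filterByExpr by group with a minimum count of 10, robust glmQLFit and glmQLFTest, and a threshold of 0.05 on p-values adjusted over 11012 genes. Levels are CPM of TMM-scaled libraries in mouse and CPM of all gene counts but Rn45s in rat, so the 2 species are not on one scale. Levels are given as mean ± SD over lines, which are separate derivations. The standard error is the absolute log2 fold change over the root of F. Where a group had 0 counts, folds are bounds against a floor of 3 counts (pXEN 0.457 CPM, XEN 0.465 CPM, ES 0.92 CPM), and with 1 to 3 counts an exact 95% interval is given. Both cover counting error only. On simulated counts of 10563 genes for pXEN against ES, 9, 43, 42 and 48 of 50 changed genes were recovered at log2 sizes of 1, 2, 3 and 4.

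The members, role groups, partner and marker lists were chosen with earlier results of these data known. Role groups follow family numbers, except that Slc4a1ap, an adaptor, was counted as no transporter. Named genes are those of the rule, known anchors by role, the 8 highest and 8 lowest called fold changes without overlap of lines (10 CPM or more in the higher group), up to 2 per role group, and the highest per kilobase. It gave 62 genes. Another 14 were added after their values were seen: Slc7a6, Slc38a1, Slc1a6, Slc5a7, Slc35a2, Slc39a1, Slc30a7, Slc36a1, Slc20a2, Slc15a1, Slc9b1, Slc25a12, Slc44a1 and Slc39a7. Gene coordinates and exon lengths come from GENCODE vM21 (GRCm38), which held all 248 symbols, and promoter windows from RefSeq (GRCm38.p6), which held 185. No rat genome was used here. A few genes within the counts are not reported by name here. Alternatives were unstranded counts, Rn45s kept, upper-quartile scaling, no low-count filter, a fit of only the 2 groups compared, DESeq2 1.42.0, stricter member rules and leaving out each line.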

Additional observations from a re-analysis of the deposited data

Results flagged for a closer look

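In the 4 rat XENP lines, 4 of 48 named genes with at least 40 counts had a line far from the others, by Dixon's gap criterion at the 95% level. Chance flags about 1 in 20 groups of this size. Slc19a1 was at 181.9 CPM in CX1 and 51.6 to 66.6 in the MAX lines. Slc25a1 was at 108.7 CPM in CX1 and 54.5 to 63.0 in the others. Slc44a1 was at 614.1 CPM in CX1 and 1307 to 1388 in the others. Slc25a3 was at 308.8 CPM in MAX2 and 347 to 354 in the others. CX1 was sequenced at passages 38 to 40 and the MAX lines at 10 to 17, and the part of passage in these values was not tested.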

How the results depend on the processing

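No paired analysis was possible because the groups compared share fewer than 2 line numbers. Among the 216 fold changes of named genes, no direction that passed the threshold reversed under the alternatives run. Changes of sign in values that did not pass were not counted. Of 2980 values, 2841 kept their side of the threshold, 109 fell short of it and 30 newly passed. Leaving out 1 line gave 32 to 56 carriers higher and 20 to 32 lower in pXEN than in ES, 29 to 58 and 17 to 30 in XEN against ES, and 1 to 4 and 2 to 4 in pXEN against XEN. Without an ES line, the lone ES line was assumed to vary like the other groups. In pXEN against XEN the higher count was 5 with no low-count filter, 7 with DESeq2 and 1 among carriers at 1 CPM in a line of every mouse group. The lower count was 2 with only the 2 groups in the fit and 2 among those carriers. Among them 19 were lower than in ES in pXEN and 19 in XEN. Fewer samples or fewer genes enter these counts by construction, and for DESeq2 and the filter the cause was not tested. Slc5a7 fell under the count filter, and so gave no value in pXEN against XEN, without pXEN4, pXEN6, XEN2 or XEN5 and with only the 2 groups. Upper-quartile scaling moved the median of all genes to -0.14 in pXEN and -0.12 in XEN against ES, and 2 named calls fell short under it. Depth limits genes at a few counts: 1 count was worth 0.413 to 0.611 CPM in mouse and 0.805 to 0.955 CPM in rat.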
